A study of Mus musculus with 24 samples.

Results

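The 10 genes Cnot1, Cnot2, Cnot3, Cnot6, Cnot7, Cnot8, Pan3, Tob1, Tnrc6a and Tnrc6b encode proteins that shorten the poly(A) tail of mRNA and that link this shortening to silencing by miRNAs. They were taken by symbol, with every probe set that the annotation of the array assigns to them alone. Of the 10 genes, 9 had a probe set and Cnot3 had 0, so that 31 of the 45037 probe sets tested were studied, for 9 of 17097 genes. Tnrc6a had 9 probe sets, Cnot6 and Pan3 had 4 each, Cnot2 and Cnot7 had 3 each, and Cnot1, Cnot8, Tob1 and Tnrc6b had 2 each. In the text the brightest probe set of a gene over all 24 arrays is its main probe set, and the levels are the deposited log2 values. Of the 31 probe sets 23 reached a mean of 6 in at least 1 of the 6 groups.

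The arrays came from cerebellum, brainstem and liver of mice aged 18 months. Of each tissue 4 arrays were of wild type (WT) mice and 4 of CAG42 mice, which the labels call Atxn2 Knock-In and which are homozygous for an Atxn2 allele with 42 CAG repeats. The murine promoter of Atxn2 drives the allele in every cell that uses this gene, and WT and CAG42 mice were littermates from heterozygous matings on a C57BL/6 background after at least 8 generations of backcrossing. The sex of the mice was not given in the sources used here. The question was whether the levels of these transcripts differ between CAG42 and WT mice, and how they are distributed over the tissues.

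Removal of the poly(A) tail is the first step in the decay of most mRNAs. The CCR4-NOT complex does most of this work, with CNOT1 as its scaffold, CNOT2 and CNOT3 as a regulatory module, and CNOT6, CNOT7 and CNOT8 as subunits that cut the tail, whereas PAN3 guides the nuclease PAN2 to mRNA bound by the poly(A)-binding protein PABPC1. TOB1 is an adaptor between CNOT7 or CNOT8 and PABPC1, and TNRC6A and TNRC6B (GW182 proteins) connect Argonaute, loaded with a miRNA, to both deadenylase complexes. ATXN2 binds PABPC1 too, which places the mutated protein beside this machinery.

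The tissues carried the markers of their labels. The mean over 6 cerebellum genes was 11.2 to 11.5 in the cerebellum arrays and 3.32 to 3.57 in liver, and the mean over 7 liver genes was 11.9 to 12.1 in liver and at most 3.25 elsewhere. The same 6 cerebellum genes stood at 7.60 to 8.54 in brainstem, where the 6 brainstem genes stood at 6.56 to 7.47, against at most 3.71 in cerebellum. WT liver replicate 1 stood apart from the other arrays. Its upper quartile over all probe sets was 6.38, against 5.87 to 6.02 in the other WT livers and at most 6.13 in CAG42 livers, and the lowest correlation within a group was 0.954 in WT liver, against 0.986 to 0.994 in the other 5 groups. The genotype comparisons in liver and the counts between WT tissues and liver are therefore also given without this array. For Atxn2 itself the main probe set differed between CAG42 and WT by -0.003 in cerebellum, by -0.14 in brainstem, where the groups did not overlap, and by 0.01 in liver, and among all 5 of its probe sets 0 passed the adjustment in the 3 tissues. Where these probe sets lie relative to the repeat is not given, so that they check no label.

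Pan3 showed the widest difference between tissues of all members, and Tob1 ran the other way. The Pan3 main probe set (1428768_PM_at) read 9.05, 8.81, 8.85 and 9.08 in the WT cerebellum arrays, 7.84, 7.66, 7.67 and 7.87 in WT brainstem and 6.61, 6.09, 5.75 and 6.09 in WT liver. No array of these 3 groups overlapped with another group. Cerebellum was 1.18 above brainstem on the log2 scale (SE 0.13, adjusted p = 4.745e-08) and 2.81 above liver (SE 0.13, adjusted p = 8.775e-16), a 7.02-fold difference. In the CAG42 mice the same differences were 1.24 (SE 0.13) and 2.81 (SE 0.13). A second probe set of Pan3, 1437883_PM_s_at, spanned 3.69 between cerebellum and liver (SE 0.11, adjusted p = 2.807e-19), a 12.9-fold difference, and 1.90 between cerebellum and brainstem (SE 0.11). With 1447895_PM_x_at cerebellum was 1.16 above brainstem and 1.44 above liver, whereas brainstem was 0.29 above liver (SE 0.11, adjusted p = 0.01586) and turned to 0.37 below it when each array was centred on its bright probe sets. Probe set 1458465_PM_at stayed between 2.79 and 3.56 on all arrays, where a level cannot be told from background.

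Tob1, in contrast, was highest in liver. Its main probe set (1423176_PM_at) read 8.91, 8.78, 8.51 and 8.59 in WT liver, 8.18, 8.08, 7.90 and 8.09 in WT cerebellum and 7.94, 7.40, 7.40 and 7.54 in WT brainstem. The liver arrays lay above all brain arrays, and WT brainstem replicate 1 reached into the range of cerebellum. The log2 difference was -0.63 between cerebellum and liver (SE 0.14, adjusted p = 0.0001877), -1.12 between brainstem and liver (SE 0.14, adjusted p = 7.178e-08) and 0.49 between cerebellum and brainstem (SE 0.14, adjusted p = 0.004574). Liver was the highest tissue under both other scalings too, with brainstem 1.53 and 1.78 below it. The dim probe set 1440844_PM_at stayed between 2.90 and 4.54.

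Because Pan3 and Tob1 had opposite orders of brain and liver, their promoters are shown (RefSeq, GRCm38.p6, 250 bases before to 50 after the start, plus strand, chr5:147429906-147430205 for Pan3 and chr11:94211204-94211503 for Tob1). The search on both strands was for the letters TATAAA of the TATA box, for the letters CCAAT of the box of that name, for the letters TGACG in the core of the cAMP response element, for the letters GGGCGG of the GC box and for the letters CCGGAA of the ETS core. Capitals mark the matches, which do not overlap in these windows.
Pan3: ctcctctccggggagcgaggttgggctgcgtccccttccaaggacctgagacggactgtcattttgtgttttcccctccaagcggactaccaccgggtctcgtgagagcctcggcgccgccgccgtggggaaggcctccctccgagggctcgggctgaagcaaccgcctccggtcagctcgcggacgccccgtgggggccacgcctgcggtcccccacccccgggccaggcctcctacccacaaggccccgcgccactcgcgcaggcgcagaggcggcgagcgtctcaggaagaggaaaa
Tob1: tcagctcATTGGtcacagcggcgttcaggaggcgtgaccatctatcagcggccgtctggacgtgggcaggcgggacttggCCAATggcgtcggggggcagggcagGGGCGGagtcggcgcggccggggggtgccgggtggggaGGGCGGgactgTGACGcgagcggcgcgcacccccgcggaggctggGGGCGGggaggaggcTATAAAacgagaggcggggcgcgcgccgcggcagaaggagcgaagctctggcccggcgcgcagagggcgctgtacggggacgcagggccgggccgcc
The Pan3 window held 0 of the 5 motifs. The Tob1 window held 1 TATA box, 2 CCAAT boxes, 1 cAMP response element core, 3 GC boxes and 0 ETS cores. Among 32851 promoter windows of this length 13.6% held a TATA box, 37.4% a CCAAT box, 20.8% the cAMP response element core, 35.7% a GC box and 14.9% an ETS core. Both windows were rich in CG dinucleotides, with 31 in Pan3 and 40 in Tob1 against a median of 7.0. These are matches of letters, and no binding was measured.

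**Figure D1:**
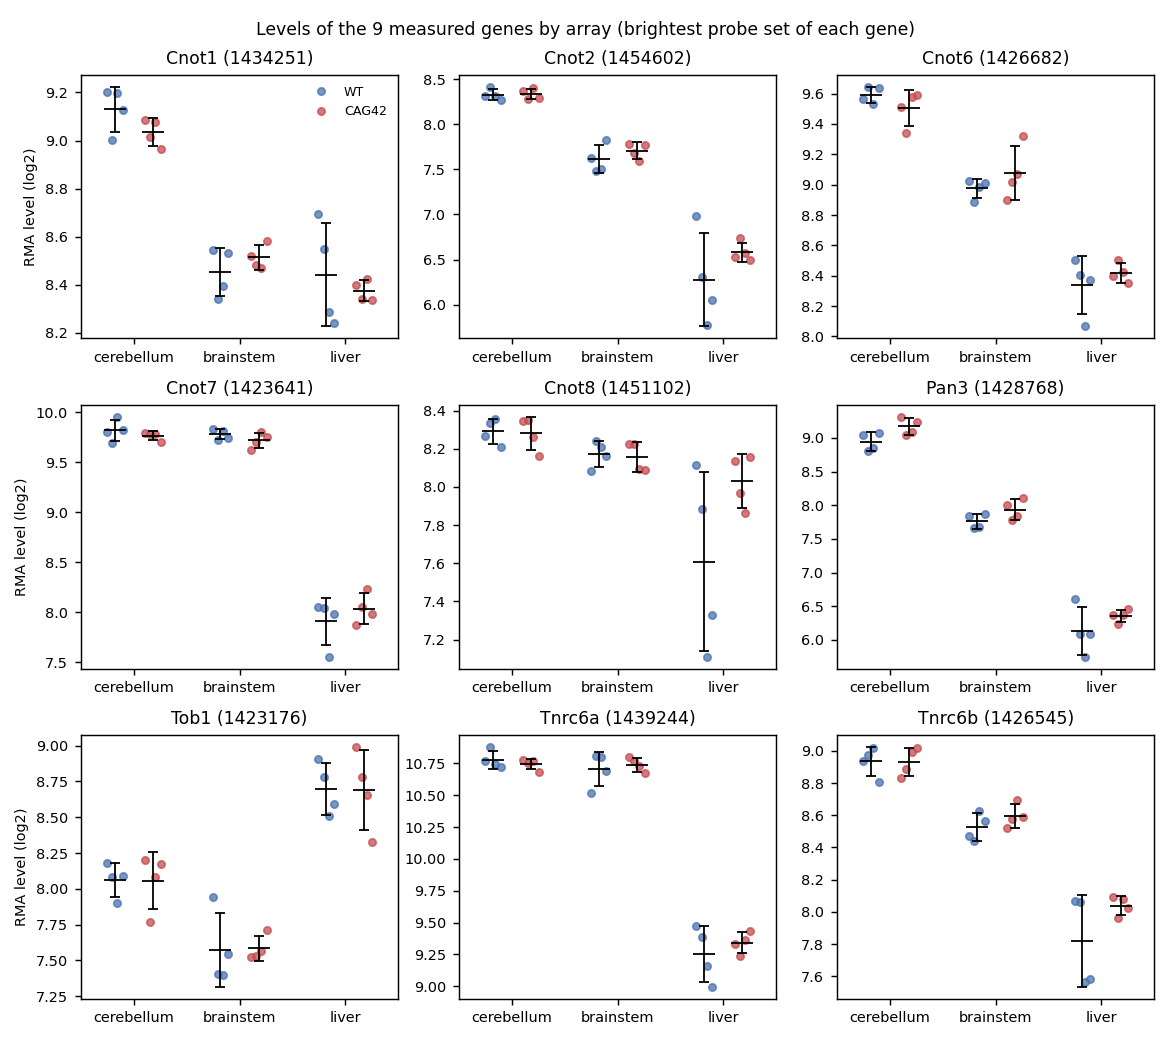
Levels (RMA, log2) of the 9 measured genes by their brightest probe set in the 3 tissues, with a point for each array (WT blue, CAG42 red) and bars for the mean and SD of the 4 arrays. Pan3 falls from cerebellum to brainstem to liver in both genotypes, Tob1 is highest in liver, and the WT liver points are spread more widely than the CAG42 liver points for 8 of the 9 genes, Tob1 being the exception.

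Over all 31 probe sets, cerebellum of WT mice was called higher than liver for 23 and lower for 4. The background for this comparison was 44.4% of all probe sets called higher and 37.3% called lower. The median difference was 1.44 over the members and 0.08 over all probe sets. Brainstem was called higher than liver for 22 members and lower for 6, against 46.5% and 34.3% of all probe sets, with a median of 0.64 against 0.16. All probe sets are a dimmer background than the members, of which 23 are among the 20421 probe sets with a mean of at least 6 in 1 or more groups. With only these 20421 fitted, 68.8% were called higher and 22.8% lower in cerebellum than in liver. For brainstem against liver the shares were 71.5% and 20%. The direction between brainstem and liver depended on the scaling. Centring each array on its own median moved the median over all probe sets to -0.24 and that over the members to 0.23, and centring on the bright probe sets moved them to -0.49 and -0.02, with 15 members called higher and 9 lower in the first and 13 and 12 in the second. Of all probe sets 36% were called higher and 49.3% lower in the first and 31.5% and 56.3% in the second. Cerebellum against liver kept a member median of 1.13 and 0.97 under these scalings, with 21 called higher and 5 lower in the first (36.9% and 49.2% of all probe sets) and 20 and 8 in the second (34.1% and 53.7%). Without WT liver replicate 1 the calls were 24 higher and 4 lower for cerebellum against liver (45.4% and 37.6%), with a median of 1.56 over the members and 0.10 over all probe sets, and 23 and 5 for brainstem against liver (47.7% and 34.6%), with 0.79 and 0.19. Whole tissues were compared, so that fewer cells of a type and less RNA per cell cannot be told apart.

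Cerebellum was called higher than brainstem for 16 of the 31 probe sets and lower for 1 in WT mice. Of all probe sets 18.8% were called higher and 28.2% lower in this comparison, and the median was 0.34 over the members and -0.07 over all probe sets. With only the 20421 brighter probe sets fitted, 24.1% were called higher and 39.8% lower. With the other scalings 17 and 26 members were called higher, against 23.1% and 28.9% of all probe sets. The share of all probe sets called lower was 22.2% and 18.6% under these scalings. In CAG42 mice 26 of 31 members were called between cerebellum and liver (80.9% of all probe sets), 24 between brainstem and liver (80.1%) and 15 between cerebellum and brainstem (46.7%). The cerebellum genes measured in brainstem at 7.60 to 8.54 lie beside this comparison, and their part in it was not tested.

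**Figure D2:**
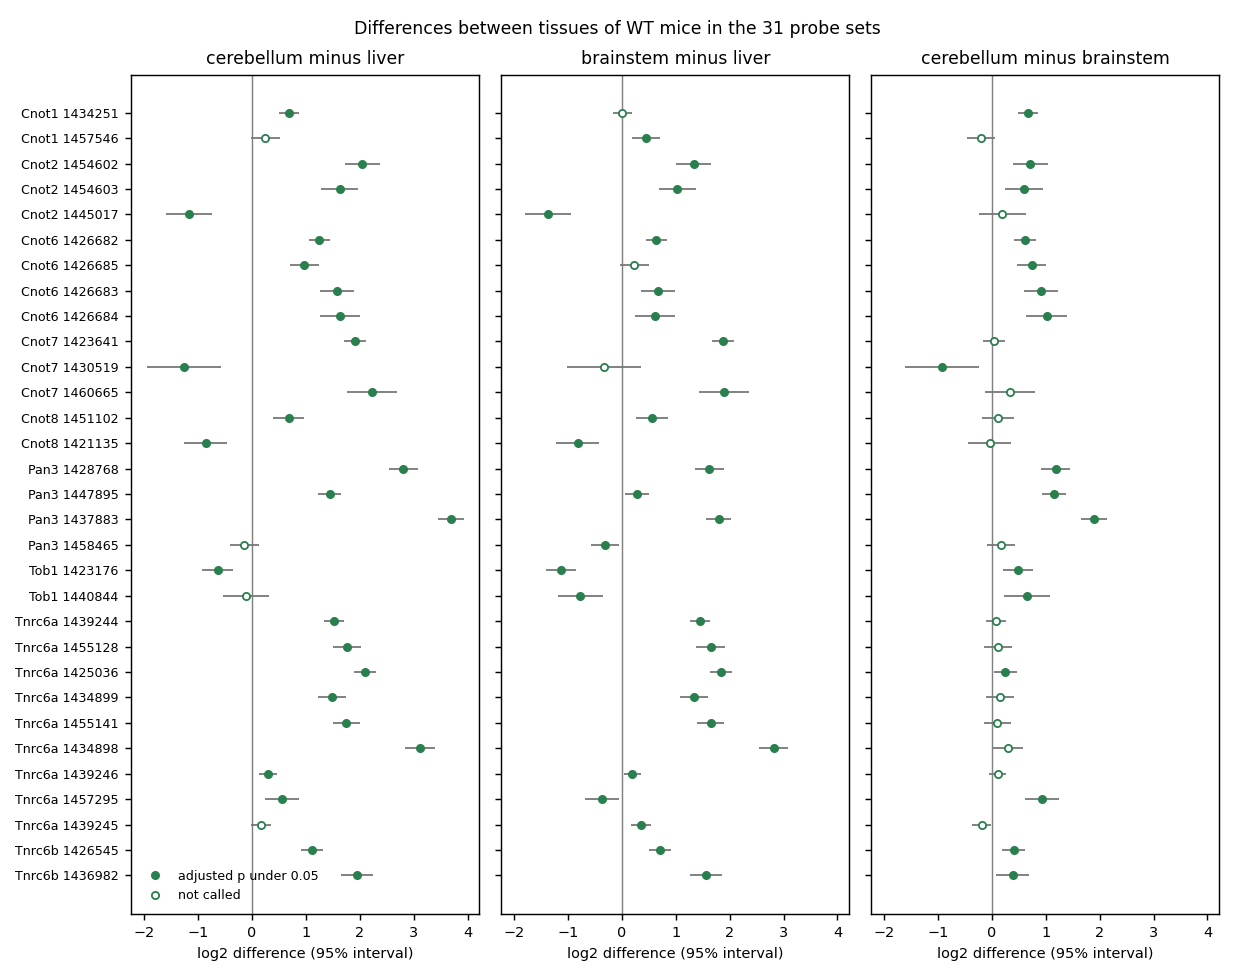
Differences between tissues of WT mice (log2) for all 31 probe sets, 1 panel for each pair of tissues, with 95% intervals; filled points have an adjusted p under 0.05. Pan3, Cnot6 and Cnot2 lie to the right of 0 in the panel of cerebellum minus brainstem by their bright probe sets, and the main probe set of Tnrc6a (1439244_PM_a_at) lies well to the right of 0 in both panels with liver and near 0 between the brain regions.

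Of the subunits that build CCR4-NOT, the scaffold Cnot1 was higher in cerebellum than in both other tissues. Its main probe set (1434251_PM_at) read 9.20, 9.0004, 9.20 and 9.13 in WT cerebellum, 8.54, 8.34, 8.40 and 8.53 in WT brainstem and 8.69, 8.55, 8.29 and 8.24 in WT liver. The cerebellum arrays lay above all others, and brainstem and liver overlapped. Cerebellum exceeded brainstem by 0.68 (SE 0.09, adjusted p = 7.181e-07), and brainstem and liver differed by 0.01 with an interval from -0.17 to 0.19, which became -0.40 and -0.65 under the other scalings. The other probe set, 1457546_PM_at, stayed between 2.72 and 3.59.

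Cnot2, of the regulatory module, fell from cerebellum to brainstem to liver. The main probe set (1454602_PM_s_at) read 8.31, 8.42, 8.32 and 8.27 in WT cerebellum, 7.63, 7.49, 7.51 and 7.82 in WT brainstem and 6.98, 6.31, 5.77 and 6.05 in WT liver, with no overlap between tissues. Cerebellum was 0.72 above brainstem (SE 0.15, adjusted p = 0.0004701) and 2.05 above liver (SE 0.15, adjusted p = 1.581e-11), and 1454603_PM_a_at gave 0.60 and 1.63. The dim probe set 1445017_PM_at disagreed, with liver at 4.53 ± 0.60 and cerebellum at 3.37 ± 0.27 (SD, n = 4).

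The deadenylase subunits differed among themselves. For Cnot6 all 4 probe sets were higher in cerebellum than in brainstem, by 0.62 to 1.02, and without overlap of the WT arrays. The main probe set (1426682_PM_at) read 9.56, 9.64, 9.53 and 9.63 in WT cerebellum, 9.02, 8.89, 8.98 and 9.01 in WT brainstem and 8.51, 8.41, 8.07 and 8.37 in WT liver. These groups were separate, but the difference of 0.64 between brainstem and liver (SE 0.09) fell to -0.02 with arrays centred on the bright probe sets. Cnot7 lay close together in the brain regions by its main probe set (1423641_PM_s_at), with 9.82 ± 0.11 in cerebellum and 9.78 ± 0.05 in brainstem (SD, n = 4 WT mice each; difference 0.04, interval -0.16 to 0.24). Liver was at 7.91 ± 0.24 and was 1.91 below cerebellum (SE 0.10, adjusted p = 8.405e-15). The probe set 1430519_PM_a_at ran the other way, with liver at 7.55 ± 0.78 and cerebellum at 6.30 ± 0.66 (SD, n = 4 WT mice each), a difference of -1.25 (SE 0.33, adjusted p = 0.00142 in limma). For Cnot8 the probe sets disagreed. With 1451102_PM_at cerebellum was 0.68 above liver (SE 0.14, adjusted p = 0.0001274), and with 1421135_PM_a_at it was 0.85 below liver (SE 0.19, adjusted p = 0.0003294), so that no order of tissues is given for this gene.

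A second probe set of Cnot7, 1430519_PM_a_at, split the WT arrays by their replicate number in all 3 tissues, a pattern chosen after its values were seen. It read 6.68, 6.14, 6.93 and 5.43 in WT cerebellum, 7.69, 7.36, 7.68 and 6.13 in WT brainstem and 8.06, 7.53, 8.14 and 6.46 in WT liver. The array numbered 4 was the lowest in each tissue, by 0.71, 1.23 and 1.07 below the next array. The CAG42 arrays kept close together at 6.34 to 6.51, 7.13 to 7.20 and 7.38 to 7.62, with an SD of 0.03 to 0.11 against 0.66 to 0.78 in WT. Of all 45037 probe sets 10 had WT array 4 as the lowest by over 0.5 in each of the 3 tissues. This probe set had the widest intervals of all members between genotypes. Another probe set, 1460665_PM_a_at, also had WT array 4 lowest in each tissue, by 0.51, 0.14 and 0.17, whereas the main probe set of Cnot7 did not have it lowest in any. A single WT number, whichever it was, was lowest in all 3 tissues for 9.54% of all probe sets and for 6 of the 31 members.

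By their main probe sets the GW182 genes were higher in both brain regions than in liver on the deposited scale. Tnrc6a (main probe set 1439244_PM_a_at) read 10.77, 10.88, 10.75 and 10.72 in WT cerebellum, 10.52, 10.81, 10.80 and 10.69 in WT brainstem and 9.47, 9.38, 9.16 and 8.997 in WT liver. The brain regions overlapped and liver lay apart. Cerebellum was 1.52 above liver (SE 0.09, adjusted p = 1.683e-13) and 0.07 above brainstem, with an interval from -0.12 to 0.26. The probe sets 1455128_PM_x_at, 1425036_PM_a_at, 1434899_PM_s_at, 1455141_PM_at and 1434898_PM_at gave 1.49 to 3.12 for cerebellum above liver, and among them 1434898_PM_at had the largest difference. The other 3 probe sets stayed under 5.80 on every array. Tnrc6b (main probe set 1426545_PM_at) read 8.94, 8.98, 9.01 and 8.81 in WT cerebellum, 8.47, 8.44, 8.63 and 8.56 in WT brainstem and 8.07, 8.06, 7.57 and 7.58 in WT liver. These groups did not overlap, and cerebellum exceeded brainstem by 0.41 (SE 0.10, adjusted p = 0.001804) and liver by 1.11 (SE 0.10). Brainstem was 0.71 above liver, which fell to 0.05 (adjusted p = 0.595) with arrays centred on the bright probe sets.

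Between CAG42 and WT mice, 0 of the 31 probe sets was called in cerebellum (0.0444% of all probe sets were called), 0 in brainstem (0.0155%) and 0 in liver (0.147%), at an adjusted p under 0.05 in limma. Without adjustment, p was under 0.05 for 0 members in cerebellum, 0 in brainstem and 3 in liver, against 3.59%, 4.17% and 8.61% of all probe sets. The CAG42 and WT arrays did not overlap for 0 members in cerebellum (3.94% of all probe sets), 1 in brainstem (3.7%), the dim Pan3 probe set 1458465_PM_at, and 0 in liver (2.76%). Over the members the cerebellum had a median of -0.04, the brainstem 0.06 and the liver 0.09, and over all probe sets each tissue had -0.01. The intervals of single probe sets had a median width of 0.53 on the log2 scale. A statistic over the 3 tissues together (the F-statistic of the methods) called 51 probe sets and 0 members.

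In cerebellum the lowest p was that of Pan3. Its main probe set read 9.32, 9.05, 9.09 and 9.24 in CAG42 mice and 9.05, 8.81, 8.85 and 9.08 in WT mice, which overlapped, with a difference of 0.23 (SE 0.13, interval -0.04 to 0.49). With 1447895_PM_x_at the values were 8.37, 8.18, 8.10 and 8.36 in CAG42 against 8.14, 7.85, 8.07 and 8.17 in WT, a difference of 0.20 (SE 0.11, unadjusted p = 0.073 in limma and p = 0.1143 in an exact two-sided permutation test, which cannot go below 0.02857). The probe set with the largest difference between tissues, 1437883_PM_s_at, had 0.03 (SE 0.11). For the main probe sets of the other members the difference in cerebellum ran from -0.10 for Cnot1 to 0.00 for Cnot2. Tnrc6a 1457295_PM_at had -0.27 (SE 0.15), where WT cerebellum replicate 2 read 5.79 and the other 3 WT arrays 4.93 to 4.95.

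In brainstem, Cnot8 came first with 1421135_PM_a_at. It read 7.17, 7.38, 7.17 and 7.49 in CAG42 mice and 7.34, 6.55, 6.64 and 7.15 in WT mice. The groups overlapped, the difference was 0.39 (SE 0.19, interval -0.01 to 0.79, unadjusted p = 0.05729 in limma), and the exact two-sided permutation test gave p = 0.1143. The main probe set of Cnot8 showed -0.02 (SE 0.14). For Pan3 the main probe set had 0.17 (SE 0.13), and for Tnrc6a, Tnrc6b and Tob1 the main probe sets had 0.04, 0.07 and 0.01.

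**Figure D3:**
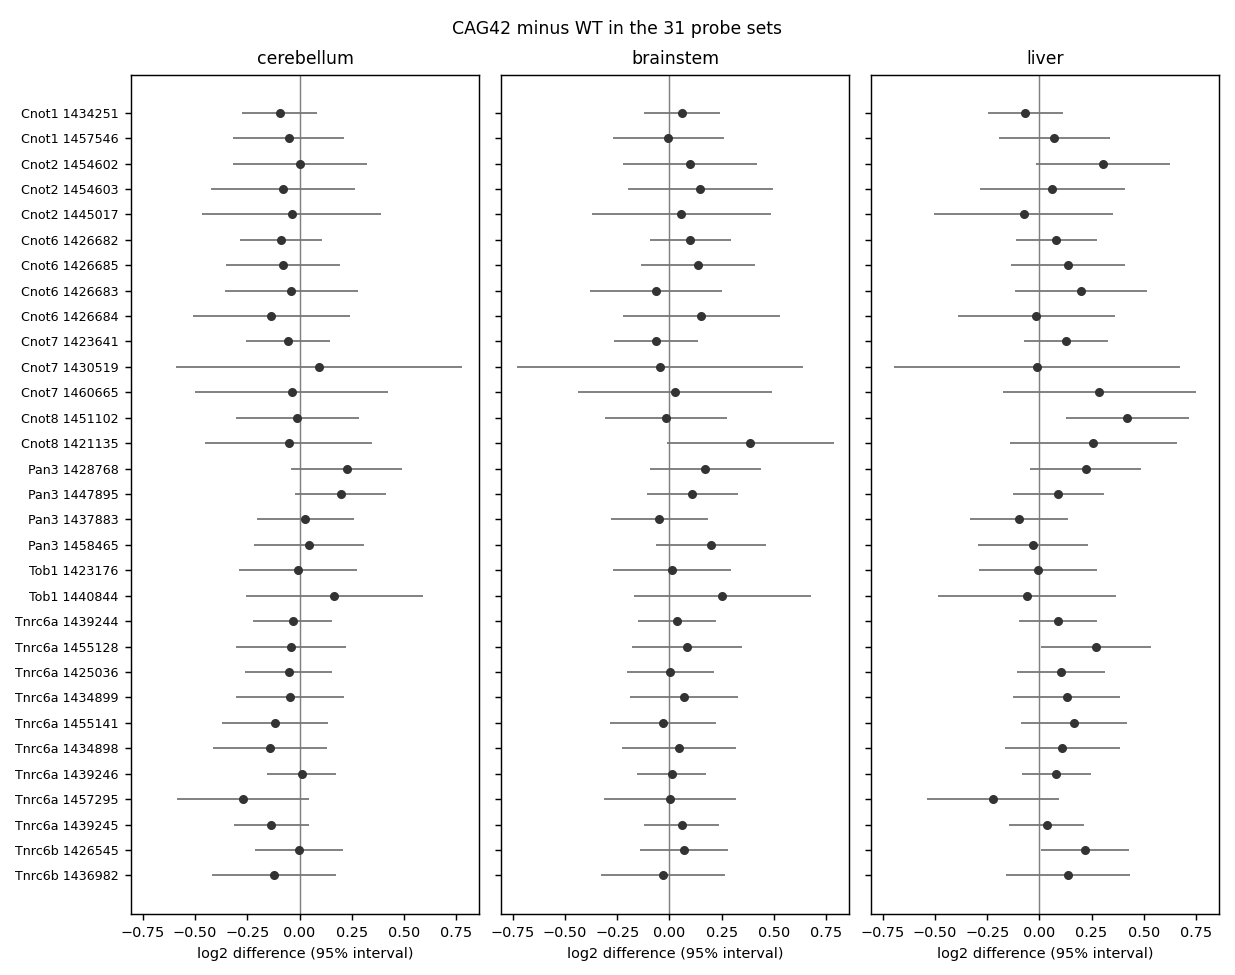
CAG42 minus WT (log2) for all 31 probe sets in cerebellum, brainstem and liver with 95% intervals, each point being a difference of means over 4 and 4 arrays. All intervals in cerebellum and brainstem include 0, and in liver those of Cnot8 1451102_PM_at, Tnrc6a 1455128_PM_x_at and Tnrc6b 1426545_PM_at lie just above it. The intervals use the spread pooled over the 6 groups.

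In liver, Cnot8, which encodes a subunit that cuts the tail, had the lowest p. Its main probe set read 8.13, 7.97, 7.86 and 8.16 in CAG42 mice and 8.11, 7.89, 7.11 and 7.33 in WT mice, which is an overlap with WT replicates 1 and 2. The difference was 0.42 (SE 0.14, interval 0.13 to 0.72, unadjusted p = 0.006967, adjusted p = 0.3326 in limma), and the exact two-sided permutation test gave p = 0.1714. This SE pools the spread of all 3 tissues. With the liver arrays fitted alone the Cnot8 difference had an SE of 0.21 and an unadjusted p of 0.07804 in limma. In that fit 0 of the 31 members had an unadjusted p under 0.05, against 3.36% of all probe sets. Tnrc6a 1455128_PM_x_at had 0.27 (SE 0.13, adjusted p = 0.5662) and Tnrc6b 1426545_PM_at 0.22 (SE 0.10, adjusted p = 0.5585). Tob1, the member that was highest in liver, had -0.01 (SE 0.14), with 8.99, 8.78, 8.65 and 8.33 in CAG42 mice.

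The levels of the members in WT liver followed the array. WT replicate 1 had the highest of the 4 WT values for 28 of the 31 probe sets and replicate 3 the lowest for 21, whereas over all probe sets replicate 1 was highest for 44.3% and replicate 3 lowest for 30.2%. The mean over the 31 probe sets was 6.59 in WT replicate 1, 6.29 in replicate 2, 5.99 in replicate 3 and 6.06 in replicate 4, and 6.30 to 6.35 in the CAG42 livers and the WT arrays stood in the same order as by their upper quartile. Deviations from the group mean of the 9 main probe sets correlated with a median r of 0.66 over 36 pairs of genes in the 8 liver arrays, all 36 above 0, against -0.04 in cerebellum and -0.06 in brainstem. The points share their arrays, and without WT replicate 1 the median was 0.49. The correlations were not computed for other genes, so that they show no trait particular to the members. The difference between the 3' and 5' control probe sets of beta-actin, a sign of RNA quality, was 1.09 in WT liver replicate 1 and 0.81 to 0.91 in the other liver arrays. That of Gapdh ran the other way, with 0.124 in WT liver replicate 1 and 0.156 to 0.305 in the other liver arrays. The mean over 6 Kupffer cell genes, markers of liver macrophages, was 7.35 to 7.78 in WT and 7.04 to 8.48 in CAG42 livers. Of these 6 genes 1 was called between genotypes, Cd163, with a log2 difference of -1.20 (CAG42 minus WT, SE 0.18, adjusted p = 0.002947) and is named after its value was seen. The mean over the 3 measured erythrocyte genes was 7.13 to 7.80 and 7.42 to 7.87. Of these 3 genes 2 had a mean under 6 in WT and in CAG42 livers, as did 2 of the 6 Kupffer cell genes in WT and 3 in CAG42 livers. The part of array scale, RNA quality and these cells in the members' values was not tested.

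Without WT liver replicate 1, 5 of the 31 probe sets were called, all higher in CAG42 mice, where 3.84% of all probe sets were called higher and 2878 probe sets were called in either direction. They were Cnot8 1451102_PM_at with 0.59 (SE 0.12, adjusted p = 0.007612), Cnot2 1454602_PM_s_at with 0.54 (SE 0.10, adjusted p = 0.005135), Tnrc6a 1455128_PM_x_at with 0.43 (SE 0.10, adjusted p = 0.0185), Cnot6 1426683_PM_at with 0.43 (SE 0.11, adjusted p = 0.0204) and Pan3 1428768_PM_at with 0.38 (SE 0.11, adjusted p = 0.03448). Of the 31 differences 29 were above 0, with a median of 0.20 against 0.01 over all probe sets. The array left out had the highest of the 4 WT values for 28 of the 31 members, against 44.3% of all probe sets. Leaving it out therefore lowered the WT mean and raised the difference for these members, so that their common direction is no separate evidence. The 5 calls used the spread of all 3 tissues. When the 7 remaining liver arrays were fitted alone, 0 members were called of 1 probe set in all, and 12 members had an unadjusted p under 0.05, against 15.1% of all probe sets. When each array was centred on its bright probe sets, the median over the members was 0.06, 3 members were called higher (Cnot8 1451102_PM_at, Cnot2 1454602_PM_s_at and Tnrc6a 1455128_PM_x_at) and 1 lower (Cnot2 1445017_PM_at). Over all probe sets the median was then -0.14, with 1.53% called higher and 11.9% lower.

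**Figure D4:**
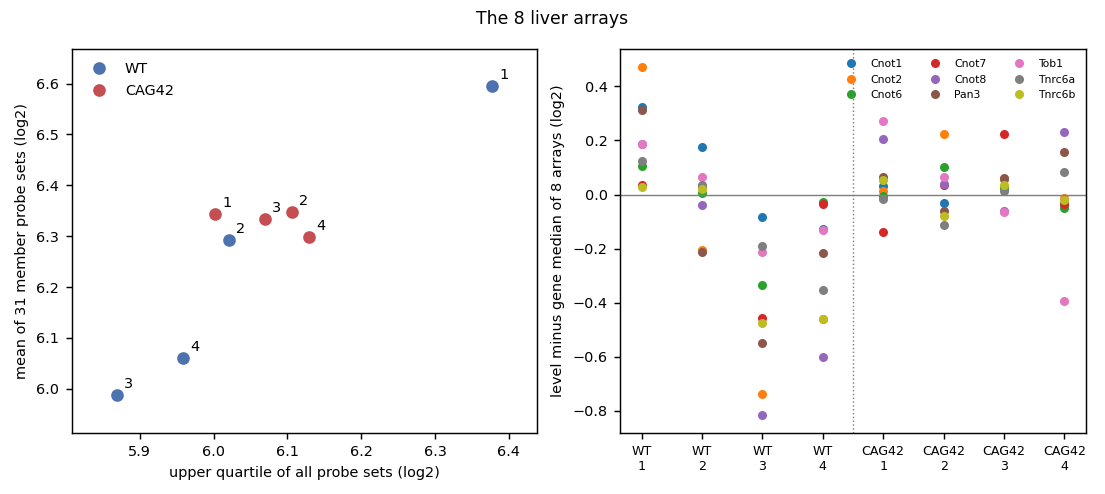
The 8 liver arrays. Left, the mean level of the 31 probe sets against the upper quartile of all probe sets, with the replicate number beside each point; right, the level of each of the 9 main probe sets minus its median over the 8 arrays. WT replicate 1 lies at the upper right at 6.38 and 6.59, WT replicates 3 and 4 at the lower left, and the CAG42 arrays lie between them, close together.

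The difference of the genotype effect between tissues passed the test for no member. Of the 31 probe sets 0 were called between cerebellum and liver (0.00888% of all probe sets), 0 between brainstem and liver (0.00888%) and 0 between cerebellum and brainstem (0.00222%). The lowest p of these was that of Cnot8 1451102_PM_at, whose effect was lower in brainstem than in liver by 0.44 (SE 0.20, adjusted p = 0.9999 in limma).

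The other genes of the pathway were counted over 8 lists with 65 genes, of which 58 were measured by a probe set of their own. In CAG42 against WT mice 0 of the 58 were called in each of the 3 tissues, and 0, 0 and 7 had an unadjusted p under 0.05 in cerebellum, brainstem and liver. In liver such a p was reached by 9.98% of the 17097 main probe sets, and in cerebellum and brainstem by 3.59% and 4.17% of all probe sets. Their median was 0.01, -0.01 and 0.11, against 0.00, -0.01 and 0.01 over the main probe sets of all genes. In liver, Btg3, a relative of Tob1 that also binds the deadenylase, read 6.82 in CAG42 and 6.34 in WT mice (difference 0.48, SE 0.11, adjusted p = 0.1033). Noct, a circadian relative of the CCR4 nucleases, had -0.45 (SE 0.21), and Toe1, another deadenylase, had 0.18 (SE 0.09). Ago3, of the Argonaute proteins that hold the miRNA, had 0.39 (SE 0.15), and Mov10, an RNA helicase found with them, had 0.31 (SE 0.12). Dcp1b, a cofactor of decapping, had -0.23 (SE 0.07), and Lsm3, of the ring that binds shortened tails, had 0.29 (SE 0.12). None of these passed the adjustment, where the lowest adjusted p was 0.1033. Without WT liver replicate 1, 9 of the 58 genes were called higher in CAG42 liver and 0 lower, against 5.77% and 2.33% of 17097 main probe sets, with a median of 0.24 against 0.03. Among the 7 named here, Btg3 was called in that fit, at 0.57 (SE 0.105, adjusted p = 0.003663). Pabpc1, the poly(A)-binding protein, had 0.08 in cerebellum, 0.12 in brainstem and 0.10 in liver (SE 0.07 each).

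Between the tissues of WT mice, 46 of the 58 genes were called higher and 6 lower in cerebellum than in liver, the same numbers in brainstem against liver, and 17 higher and 15 lower in cerebellum than in brainstem. Of the 17097 main probe sets 46.5% were higher and 38.3% lower in the first comparison, 51.8% and 33.0% in the second and 14.1% and 36.3% in the third. Centred on the median of each array the pathway counts were 42 and 9, 40 and 8, and 17 and 9, against 39.6% and 47.8%, 42.1% and 45.0%, and 17.5% and 29.2%. Centred on the bright probe sets they were 40 and 13, 34 and 14, and 24 and 7, against 37.1% and 52.1%, 37.7% and 50.9%, and 23.4% and 25.1%. Without WT liver replicate 1, cerebellum was higher than liver for 48 and lower for 6 (47.9% and 38.2%), and brainstem for 50 and 6 (52.9% and 33.1%). All 3 measured further CCR4-NOT subunits (Cnot6l, Cnot9 and Cnot10) were called higher in both brain regions than in liver, but in brainstem 1 was called higher with either centring, and 1 lower with that on bright probe sets. Of the 6 genes of miRNA processing 6 were called higher in cerebellum than in liver, with 3.24 for Drosha (SE 0.11), the nuclease that cuts the primary transcript, and of the other 7 genes of miRNA silencing 5 were higher and 2 lower. Pan2, the nuclease that PAN3 guides, was looked at after its values were seen. It exceeded brainstem by 1.44 in cerebellum (SE 0.10, adjusted p = 5.061e-11) and liver by 2.49 (SE 0.10), which is the order of Pan3. Btg1, another relative of Tob1, was 1.99 higher in cerebellum than in liver (SE 0.11), opposite to Tob1. In the other comparisons Btg1 had the sign of Tob1, with -0.23 for brainstem minus liver (SE 0.11) and 2.22 for cerebellum minus brainstem (SE 0.11).

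The genes outside these lists whose levels ran most like those of a member were found among 7934 genes by Pearson's r over the 24 arrays, which share tissue and genotype, so that r describes the order of tissues above all. For Cnot7 they were Zc3h7b and Dnmt1 (r = 0.996 and 0.995), for Tnrc6a Klhdc3 and Phc3 (0.995 and 0.994), for Pan3 Zfp219 and Mus81 (0.992 each) and for Cnot2 Fnbp4 and Usf3 (0.990 each). Cnot6 ran most like Foxn2 and Ppp1cc (0.981 and 0.980), Tnrc6b like Nsmce4a and Kmt2b (0.976 each) and Cnot1 like Gabpb2 and Arhgef7 (0.967 and 0.960). Tob1, highest in liver, ran most like Selenoo and Pde3b (0.957 and 0.946). Cnot8 had the lowest values, with 0.902 for Yy1 and 0.880 for Yeats4.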

How the data were processed

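Total RNA of 24 tissues was hybridised to Affymetrix mouse arrays with perfect-match probes only, 4 per genotype and tissue. Per the labels, the authors computed the deposited log2 values by RMA in R 2.7.0, which corrects background, normalises quantiles over arrays and summarises the probes of a set. A genome build for the probe sets was not given in the sources used here. Of 45141 probe sets 104 controls were left out, and of the other 45037 the annotation named 1 gene for 28898, several for 551 and none for 15588.

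With limma 3.58.1 (R 4.3.3) a linear model with 6 group means was fitted over the 24 arrays, with Benjamini-Hochberg adjustment over all probe sets, and a probe set with an adjusted p under 0.05 was called. Single probe sets of lowest p were also tested by exact permutation. All members were named, with up to 2 genes of lowest p per pathway list and tissue, and the 2 genes of highest r with a member. The members, the lists and the alternatives were chosen with earlier results of these data known. P-values measure the spread between arrays, pooled over the 6 groups of 4.

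Replicate numbers were checked for pairing. Arrays that share genotype and number deviated together from their group means between cerebellum and brainstem (r = 0.224 to 0.375 over 8 pairs) and less between liver and cerebellum (0.0775 to 0.285) or brainstem (0.0417 to 0.161), and those of the same tissue and number between genotypes did not pair (r = -0.299 to 0.214). The sources used here do not say that a number marks a mouse. Background signals and scan times were not used, so that no batch could be tested, and the number of arrays limits the precision.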

Additional observations from a re-analysis of the deposited data

Results flagged for a closer look

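In 9 of 186 groups of 4 arrays, over the 31 probe sets, the highest or lowest array lay apart from the other 3 by more than Dixon's 95% critical value for the gap over the range, and chance flags about 1 in 20 groups. For Cnot7 1423641_PM_s_at, CAG42 cerebellum replicate 4 read 9.70 (others 9.78 to 9.79) and WT liver replicate 3 read 7.56 (others 7.98 to 8.05). For Cnot7 1430519_PM_a_at, CAG42 cerebellum replicate 3 read 6.51 (others 6.34 to 6.36). For Cnot8 1421135_PM_a_at, WT cerebellum replicate 1 read 7.10 (others 6.79 to 6.84). For Pan3 1458465_PM_at, CAG42 brainstem replicate 4 read 3.40 (others 2.94 to 2.97). This is the dim probe set whose brainstem groups did not overlap. For Tnrc6a 1434898_PM_at, CAG42 cerebellum replicate 4 read 8.64 (others 8.95 to 8.99) and CAG42 liver replicate 4 read 5.99 (others 6.03 to 6.04). For Tnrc6a 1457295_PM_at, CAG42 brainstem replicate 1 read 4.06 (others 4.26 to 4.29) and WT cerebellum replicate 2 read 5.79 (others 4.93 to 4.95). The cause of these values was not tested.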

How the results depend on the processing

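The count of members called between genotypes stayed at 0 in cerebellum and brainstem under every alternative run. In liver it was 0 to 5 when each array was left out in turn, and the 5 came without WT liver replicate 1. Arrays centred on bright probe sets without that array, an alternative chosen after seeing the data like the fit of liver alone without it, gave 4. With the replicate number as a block within a tissue, which pairs WT and CAG42 arrays by number, 0 members were called between genotypes in each tissue. Between tissues the block was genotype and number together. The members called were then 27, 29 and 19 for WT cerebellum against liver, brainstem against liver and cerebellum against brainstem, and 26, 25 and 16 for CAG42. Of all probe sets 82.4%, 81.4% and 48.1% were called in WT and 81.4%, 80.7% and 47.8% in CAG42. Over all probe sets the replicate block called 0, 4 and 0 between genotypes. With the mean of the probe sets of each of the 9 genes, 8, 8 and 7 genes were called in WT and 8, 8 and 5 in CAG42, against 84.4%, 84.0% and 51.2% of all genes in WT and 83.6%, 83.6% and 50.4% in CAG42. Of the 58 pathway genes 9 were called between genotypes in liver without WT liver replicate 1, an alternative chosen after seeing the data like the centrings of these genes. With arrays centred on bright probe sets 26 members were called between WT cerebellum and brainstem.

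Some directions turned. Between genotypes, array weights gave 0.0511 for Tob1 and 0.002 for Cnot1 in liver and 0.0241 for Tnrc6b in cerebellum, where quantile normalization gave 0.0024. Liver alone without WT replicate 1 gave 0.0622 for Tob1 and 0.017 for Cnot1, and bright centring without it gave -0.0098 for Cnot6. For WT brainstem against liver, bright centring gave -0.0202 for Cnot6, -0.0933 for Cnot8 and -0.65 for Cnot1, and median centring gave -0.40 for Cnot1. The cause was not tested.

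Leaving out each array in turn gave -0.0616 to 0.0903, -0.0469 to 0.14 and -0.11 to 0.11 for Tob1 between genotypes in cerebellum, brainstem and liver, -0.0453 to 0.0301 for Tnrc6b, -0.0527 to 0.0002 for Tnrc6a, -0.0379 to 0.0281 for Cnot8 and -0.0182 to 0.033 for Cnot2 in cerebellum, -0.0277 to 0.0704 for Tnrc6a and -0.0461 to 0.0073 for Cnot8 in brainstem, and -0.0094 to 0.14 for Cnot6 and -0.13 to 0.017 for Cnot1 in liver. For tissues of WT mice it gave -0.0084 to 0.0776 for Cnot7 in cerebellum against brainstem and -0.0561 to 0.0947 for Cnot1 in brainstem against liver. A low level, for which no background signal was used, could be background.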
